A study of Arabidopsis thaliana with 16 samples.

Results

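Seedlings of the Arabidopsis thaliana double mutant mrg1 mrg2 were compared after 3 h at 28 °C and at 22 °C, and the comparison covered every gene whose reads passed a filter on low counts. It rests on 4 of the 16 RNA libraries of the study, 2 at each temperature, and on 20075 of 33602 genes. The mutated genes, MRG1 (AT4G37280) and MRG2 (AT1G02740), are a related pair whose products carry a chromodomain and read methyl marks on histone H3. The third gene mutated in the study, PIF4 (AT2G43010), codes for a bHLH factor that promotes elongation of warm seedlings.

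All groups were Col-0 seedlings at day 6, grown on Murashige and Skoog medium in continuous white light, and RNA came from seedlings. The genotypes were mrg1 mrg2, the triple mutant mrg1 mrg2 pif4, the single mutant pif4 and WT, each with 2 libraries kept at 22 °C and 2 libraries moved to 28 °C for 3 h. Neither the alleles nor the number of seedlings per library is stated in the labels, nor whether both libraries of a group were grown as separate cultures. The p-values therefore measure the spread between libraries, which may be technical. In bulk RNA of seedlings, fewer cells of a type and less RNA per cell cannot be told apart.

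A moderate rise in temperature changes plant growth and metabolism without the damage of heat stress. Warm seedlings elongate through phytochrome B, the evening complex of the clock and PIF4, which act on auxin and brassinosteroid genes. Warmth also raises chaperone transcripts through heat shock factors, and lowers transcripts of cold acclimation and of flavonoid synthesis. MRG proteins read histone H3 methylated at lysine residues of transcribed genes and are known to bring histone acetyltransferases to some of them.

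MRG1 and MRG2 transcripts were low in the mrg1 mrg2 libraries. MRG1 (chromosome 4, 17546577 to 17549559, minus strand, TAIR10.1) stood at 6.64 and 4.54 counts per 1000000 (CPM) at 22 °C and at 4.64 and 4.88 CPM at 28 °C in mrg1 mrg2. In WT it stood at 19.6 and 21.3 CPM at 22 °C and at 24.9 and 28.3 CPM at 28 °C, so the genotypes did not overlap. MRG2 (chromosome 1, 599330 to 602199, minus strand) had 4, 8, 6 and 5 reads in the 4 mrg1 mrg2 libraries, against 8.65 to 11.6 CPM in the WT libraries. Warmth did not change MRG1 (log2 change −0.24 ± 0.21, adjusted p = 0.436) beyond the spread between libraries. PIF4 transcripts were not low in the lines labelled as lacking it: they stood at 27.9 ± 3.88 CPM in pif4 and 38.3 ± 4.39 CPM in mrg1 mrg2 pif4 at 22 °C, against 31.7 ± 2.97 CPM in WT, and at 78.2 ± 1.06, 83.5 ± 1.96 and 90.4 ± 5.82 CPM at 28 °C (SD, n = 2). Reads summed over the whole gene therefore do not check the pif4 labels, and pif4 and mrg1 mrg2 pif4 below mean the libraries labelled so. Here and below, ± after a log2 change is its standard error, and adjusted p-values come from edgeR's quasi-likelihood test with Benjamini-Hochberg adjustment over 20075 genes.

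Library totals in mrg1 mrg2 were 9574845 and 9169092 counts at 22 °C and 11363353 and 9002707 counts at 28 °C. At these depths 3 counts correspond to 0.253 to 0.340 CPM in the mrg1 mrg2 libraries. The share of reads on the ribosomal RNA gene AT3G41768 was 6.48% and 8.23% at 22 °C and 5.83% and 9.18% at 28 °C, so it differed between libraries of a group as much as between temperatures. On the first principal component of log2 CPM, which held 31.5% of the variance, the 28 °C libraries of mrg1 mrg2 lay at 17.8 and 19.6 and those of the other genotypes at 27.4 to 30.3. The 22 °C libraries of mrg1 mrg2 lay at −34.3, against −22.1 to −27.2 in the others, so both temperatures of the double mutant sat on the same side of the rest.

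Warmth raised 2574 genes in mrg1 mrg2 and lowered 2835, which are 12.8% and 14.1% of the genes tested and 26.9% together. The counts of each gene list below are to be read against these shares, which were not matched to the level of the listed genes. The words rose and fell are used where the adjusted p was under 0.05. Most changes were small: the median log2 change was 0.50 among genes that rose and −0.45 among genes that fell. At least 2-fold changes numbered 334 upward (1.66%) and 275 downward (1.37%), and 66 rises and 38 falls were over 4-fold. The share of genes called grew with the level, from 9.32% in the lowest of 4 equal groups of genes by mean CPM to 49.0% in the highest. Rises made up 12.5% to 13.4% of the genes tested on each of the 5 chromosomes and falls 13.0% to 15.7%.

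The strongest rises at or above 5 CPM were led by chaperone and starvation genes. HSP90.1, a heat-inducible cytosolic chaperone, headed them, followed by the asparagine synthetase gene ASN1, HSP70 and MBF1C. The same 15 genes included the co-chaperone genes Hop3 and ROF2, HSA32, which is needed to keep acquired thermotolerance, and SEN1 and NAP, both known from leaf senescence. AT5G12110, annotated as an elongation factor 1-beta, rose from 3.94 and 6.20 CPM to 37.6 and 31.2 CPM (2.78 ± 0.16, adjusted p = 1.17e-16). AT2G15880, a leucine-rich repeat protein gene, rose from 16.0 and 15.1 CPM to 60.8 and 65.4 CPM (2.02 ± 0.10, adjusted p = 4.98e-19). Both warm libraries lay above both cool ones in each of these 15 genes, because that was a condition for choosing them. The same was true of 2564 of the 2574 genes that rose. Groups that do not overlap were common, since they made up 61.9% of all genes tested.

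**Figure D1:**
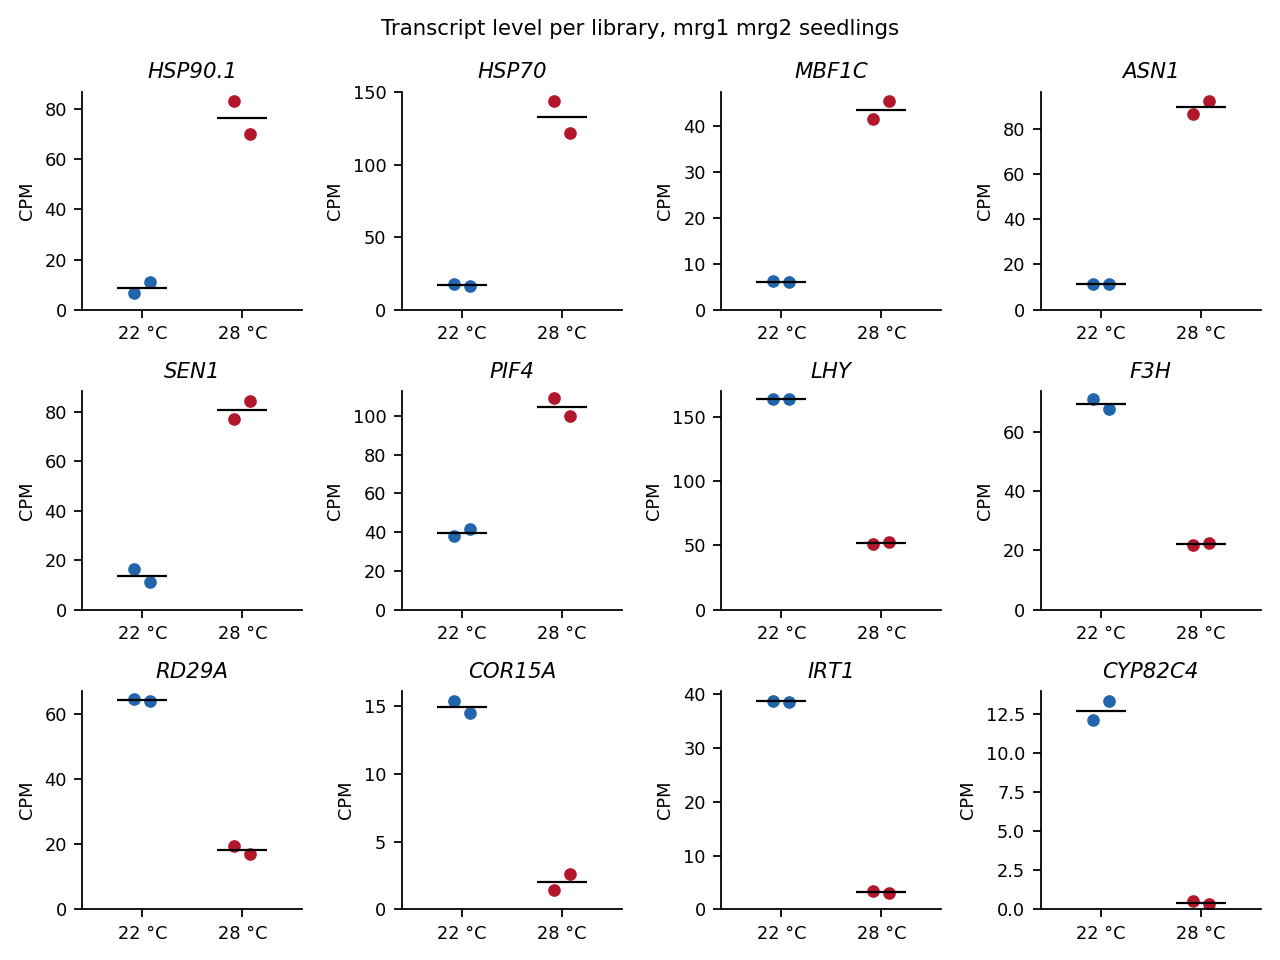
Level in CPM of 12 genes in each of the 4 mrg1 mrg2 libraries, with points for libraries (blue at 22 °C, red at 28 °C) and lines for group means. In every panel the libraries of the 2 temperatures do not overlap: HSP90.1 goes from 6.64 and 11 CPM to 83.1 and 70.2 CPM, and IRT1 from 38.8 and 38.6 CPM to 3.46 and 2.95 CPM.

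Most heat shock chaperone genes rose. Of 18 listed chaperone genes 15 were tested, 11 rose and none fell, where 12.8% of all genes rose, with a median log2 change of 2.18 against 0.00 over all genes tested. HSP90.1 stood at 6.64 and 11 CPM at 22 °C and at 83.1 and 70.2 CPM at 28 °C, a log2 change of 3.13 ± 0.14 (adjusted p = 2.61e-20). HSP70 (AT3G12580) went from 17.7 and 16.4 CPM to 144 and 122 CPM (2.96 ± 0.09, adjusted p = 1.98e-25). The co-chaperone gene Hop3, whose product links HSP70 with HSP90, went from 7.15 and 7.86 CPM to 46.5 and 46.3 CPM (2.63 ± 0.12, adjusted p = 4.87e-20). The co-chaperone gene BAG6 rose less, from 7.15 and 8.63 CPM to 11.8 and 13.1 CPM (log2 change 0.65). HSC70-1 and HSP90.2 were the most abundant members at 22 °C. The constitutive chaperone gene HSC70-1 rose from 2400 and 2380 CPM to 2760 and 2990 CPM (0.27 ± 0.04, adjusted p = 1.62e-06), and HSP90.2 was at 401 and 375 CPM before and 375 and 337 CPM after warming (−0.12 ± 0.06, adjusted p = 0.0925). The other members without a call, HSP70b, HSP18.2 and AT5G37670, were at 1.33 to 6.53 CPM at 22 °C and had log2 changes of 0.14, 0.18 and 0.85.

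Small heat shock proteins hold unfolded proteins in a soluble state. Transcripts of HSP17.4, HSP17.6II and HSP17.6A were nearly silent at 22 °C and stayed rare at 28 °C. HSP17.4 had 1 and 0 reads at 22 °C and 40 and 27 at 28 °C, a ratio of 60.6 in reads per library size (95% exact interval 10.5 to 2.43e+03). HSP17.6II had no reads at 22 °C and 8 and 13 at 28 °C, which is at least 6.33-fold higher against a floor of 3 counts over the group. HSP17.6A likewise went from 0 and 0 reads to 7 and 13, at least 6.03-fold higher. These intervals and floors cover counting error only. HSP17.4, HSP17.6II and HSP17.6A all passed the test, and none exceeded 3.38 CPM in any mrg1 mrg2 library. AT5G51440, annotated as an HSP20-like chaperone, reached a higher level, from 1.66 and 1.66 CPM to 10.5 and 12.8 CPM (2.79 ± 0.28, adjusted p = 2.94e-10). HSP18.2, given above, had no call. With the HSP17.6II and HSP17.6A changes set to their bounds, the median of the list remained 2.18.

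The regulators of this response moved too. Of 12 genes for heat shock factors and their partners 10 were tested, 7 rose and none fell, where 12.8% of all genes rose. The median log2 change was 0.82. MBF1C, a coactivator needed for thermotolerance, went from 6.22 and 5.98 CPM to 41.5 and 45.5 CPM (2.83 ± 0.13, adjusted p = 4.39e-20). HSFA2, the factor that sustains the heat shock response, had 2 and 1 reads at 22 °C and 42 and 17 reads at 28 °C, a ratio of 17.8 (95% exact interval 5.80 to 88.7). HSFB2B, a repressor-type factor, rose from 10.3 and 8.63 CPM to 17.8 and 21.2 CPM (1.03 ± 0.16, adjusted p = 2.85e-06). Of the factors that start the response in Arabidopsis HSFA1B passed the test (0.51 ± 0.18, adjusted p = 0.0286), a call lost with DESeq2 and without 3 of the 4 mrg1 mrg2 libraries in turn (adjusted p up to 0.209). HSFA1A (0.07 ± 0.21, adjusted p = 0.851) and HSFA1D (0.19 ± 0.16, adjusted p = 0.392) did not pass the test, nor did HSFA7A (0.37 ± 0.18, adjusted p = 0.132).

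Heat shock factors bind the heat shock element, inverted repeats of GAA. The element was searched on both strands as TTC, GAA and TTC, or as GAA, TTC and GAA, with any 2 bases between neighbours, from 250 bases before to 50 after each gene's start in the TAIR10.1 reference. It was found in 0.481% of 27443 promoters, in 3.61% (11) of the 305 promoters of genes that rose at least 2-fold and in 0.76% (2) of the 263 of genes that fell at least 2-fold. HSP70, HSP17.4, AT1G53540 and Hop3 held it among the chaperones, and HSFA2, HSFA7A and DREB2A among the regulators. The 250 bases before the start of HSFA2 (chr2:11135374-11135623, plus strand) and of HSP17.4 (chr3:16984868-16985117, minus strand) are shown in gene direction because these genes had the highest ratios of warm to cool levels among the holders named, with the matches in capitals. The match in HSFA2 began at position −88 from the gene start and those in HSP17.4 at −99 and −18.
HSFA2: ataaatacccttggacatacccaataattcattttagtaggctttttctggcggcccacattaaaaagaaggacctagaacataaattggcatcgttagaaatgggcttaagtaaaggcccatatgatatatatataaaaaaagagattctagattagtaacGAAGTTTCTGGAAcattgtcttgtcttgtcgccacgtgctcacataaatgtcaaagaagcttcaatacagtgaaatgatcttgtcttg
HSP17.4: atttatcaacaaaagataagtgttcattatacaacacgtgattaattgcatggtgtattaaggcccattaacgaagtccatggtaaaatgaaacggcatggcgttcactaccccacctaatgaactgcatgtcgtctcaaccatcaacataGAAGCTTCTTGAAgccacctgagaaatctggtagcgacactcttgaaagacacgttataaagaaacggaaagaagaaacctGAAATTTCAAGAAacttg

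Genes known from sugar starvation and darkness rose nearly throughout. Of 18 listed genes 17 were tested, 15 rose and none fell (median log2 change 0.93), where 12.8% of all genes rose. ASN1, the asparagine synthetase induced when carbon is scarce, went from 11.2 and 11.3 CPM to 86.6 and 92.2 CPM (2.99 ± 0.09, adjusted p = 1.98e-25). SEN1, a dark- and senescence-induced gene, went from 16.5 and 11 CPM to 77.1 and 84.7 CPM (2.55 ± 0.12, adjusted p = 6.62e-20). Both genes had cool libraries far below warm ones. DIN10, a raffinose synthase family gene, went from 205 and 190 CPM to 568 and 579 CPM (1.54 ± 0.05, adjusted p = 1.97e-24), and the dormancy-associated gene DYL1 from 73.9 and 71.2 CPM to 173 and 180 CPM (1.28 ± 0.06, adjusted p = 2.98e-19).

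Breakdown of branched-chain amino acids, which feeds respiration when sugar runs short, was represented by DIN4, BCAT2, MCCA, IVD and ETFQO, and all 5 rose, by log2 changes of 0.48 to 1.51. The class II trehalose-phosphate synthase genes TPS8, TPS9, TPS10 and TPS11 rose too. TPS8 was the strongest of them, from 55.5 and 58.9 CPM to 135 and 124 CPM (1.18 ± 0.07, adjusted p = 3.10e-16). The members without a call were the beta-glucosidase gene BGLU30 (0.26 ± 0.16, adjusted p = 0.247) and the scaffold gene BT2 (0.05 ± 0.06, adjusted p = 0.633). BZIP11 is listed at 0 reads in the mrg1 mrg2 libraries.

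PIF4 itself responded to warmth in mrg1 mrg2. Its transcript went from 37.8 and 41.5 CPM to 109 and 100 CPM (1.40 ± 0.09, adjusted p = 1.85e-15), and in WT from 33.8 and 29.6 CPM to 94.5 and 86.2 CPM (1.52). The difference between these changes was −0.12 (adjusted p = 0.728) and did not pass the test. PIF5 (0.91 ± 0.07, adjusted p = 4.46e-13) and PIF1 (0.52 ± 0.10, adjusted p = 0.000149) rose with it. PIF3 rose less in mrg1 mrg2 than in WT, from 11.1 and 13.2 CPM to 14.7 and 16.7 CPM against 11.3 and 13.4 CPM to 26.2 and 25.7 CPM (difference −0.70, adjusted p = 0.0268). This PIF3 difference did not pass with DESeq2, nor without replicate 2 at 22 °C or replicate 1 at 28 °C of mrg1 mrg2 (−0.57 to −0.82 with 1 library left out, adjusted p 0.027 to 0.178). The rise of PIF3 in mrg1 mrg2 was likewise lost without replicate 1 at 22 °C or replicate 2 at 28 °C (adjusted p up to 0.348).

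Growth genes linked to PIF4 rose in part. Of 19 listed genes 18 were tested, 8 rose and none fell, where 12.8% of all genes rose. The median log2 change was 0.70. In WT 9 of the 18 rose, with a median of 0.79. YUC8, a flavin monooxygenase of auxin synthesis, went from 2.28 and 1.55 CPM to 4.47 and 3.52 CPM (1.07 ± 0.35, adjusted p = 0.0195), and LNG2, a cell elongation gene, from 34.9 and 37.7 CPM to 59.2 and 59.6 CPM (0.71 ± 0.08, adjusted p = 1.77e-08). XTH15, a cell wall enzyme gene, went from 12.8 and 12.1 CPM to 26.4 and 24.6 CPM (1.04 ± 0.12, adjusted p = 1.64e-08). The YUC8 call was lost without replicate 2 at 22 °C or replicate 1 at 28 °C (0.83 to 1.38, adjusted p up to 0.187). HFR1, whose product binds PIFs and holds them off DNA, also rose (1.28 ± 0.25, adjusted p = 0.000131).

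The expansin gene EXPA8 was the member whose response differed from WT. It went from 43.4 and 43.6 CPM to 54.1 and 52.7 CPM in mrg1 mrg2, and from 43.7 and 44.6 CPM to 69.6 and 71.0 CPM in WT. The cool libraries of both genotypes lay together and the warm ones apart (difference −0.37, adjusted p = 0.0406). The difference did not pass with DESeq2 or when any 1 mrg1 mrg2 library was left out. In pif4 and mrg1 mrg2 pif4 the median log2 change of the PIF4-linked list was 0.21 and 0.20, with 3 and 4 of 18 genes that rose. Over all 20075 genes tested 2654 rose in pif4 and 2590 in mrg1 mrg2 pif4.

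Hormone genes beyond these moved at lower rates. Of 22 auxin genes tested (24 listed) 5 rose and none fell. The Aux/IAA repressor gene IAA7 (0.50 ± 0.06, adjusted p = 1.64e-08) and the auxin-conjugating enzyme gene GH3.5 (0.71 ± 0.09, adjusted p = 4.55e-08) led by p. Of 13 brassinosteroid genes 5 rose and none fell: CPD, a synthesis enzyme gene, went from 113 and 109 CPM to 184 and 195 CPM (0.77 ± 0.06, adjusted p = 1.01e-12), and BAS1, whose product inactivates the hormone, rose as well (0.98 ± 0.20, adjusted p = 0.000197). The receptor gene BRI1 went from 141 and 136 CPM to 175 and 169 CPM (0.31 ± 0.07, adjusted p = 0.000555). Of 16 gibberellin genes tested (18 listed) 4 rose and 1 fell. The receptor gene GID1C rose (0.59 ± 0.13, adjusted p = 0.00055) and the synthesis gene GA3OX2 fell (−1.39 ± 0.29, adjusted p = 0.00035). The 5 auxin, 5 brassinosteroid and 4 gibberellin rises compare with 12.8% of all genes.

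The circadian clock moved in both directions. All 21 listed genes were tested, 10 rose and 7 fell, where 12.8% of all genes rose and 14.1% fell. The morning gene LHY fell most, from 164 and 164 CPM to 50.8 and 52.6 CPM (−1.67 ± 0.07, adjusted p = 3.16e-21), and its partner CCA1 fell little, from 73.0 and 72.5 CPM to 64.6 and 60.4 CPM (−0.22 ± 0.07, adjusted p = 0.0218). The evening complex gene LUX went from 27.5 and 24.5 CPM to 65.7 and 69.7 CPM (1.38 ± 0.09, adjusted p = 6.43e-15), while its partners ELF4 fell (−0.41 ± 0.12, adjusted p = 0.00864) and ELF3 did not pass (0.12 ± 0.08, adjusted p = 0.337). The calls of CCA1 (adjusted p up to 0.179) and ELF4 (adjusted p up to 0.129) were lost without replicate 2 of either temperature, and that of CCA1 also without replicate 1 at 22 °C. PRR7, a repressor of CCA1 and LHY, rose by 1.15 ± 0.07 (adjusted p = 7.87e-16) and GI by 1.27 ± 0.10 (adjusted p = 2.91e-13).

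CCA1 differed between the genotypes. Its log2 change was −0.22 in mrg1 mrg2, −0.54 in WT, −0.81 in pif4 and −0.97 in mrg1 mrg2 pif4. Against the mean of the other genotypes the difference was 0.55 (adjusted p = 0.000128), and for LHY it was 0.33 (adjusted p = 0.0341). Against WT alone neither CCA1 (adjusted p = 0.0653) nor LHY (adjusted p = 0.259) passed the test. The LHY difference from the mean did not pass when any 1 mrg1 mrg2 library was left out. RVE2, a clock-related MYB gene, fell from 111 and 108 CPM to 64.8 and 61.8 CPM in mrg1 mrg2 and from 158 and 148 CPM to 56.1 and 57.8 CPM in WT (difference 0.64, adjusted p = 7.85e-05). Warm levels of RVE2 were thus closer between genotypes than cool levels.

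CCA1, LHY and related MYB proteins bind the evening element AAAATATCT. It lay in the promoters of 6 of the 21 clock genes (PRR9, PRR5, TOC1, LUX, BOA and FKF1), against 2.82% of all promoters. Genes that rose at least 2-fold held it in 4.26% of promoters and genes that fell at least 2-fold in 4.56%. Of the 6 clock genes that held it, PRR9, TOC1, LUX and BOA rose, PRR5 fell and FKF1 did not pass (−0.28 ± 0.15, adjusted p = 0.191). The 250 bases before the start of LUX (chr3:17182792-17183041, plus strand) are shown as the holder with the largest rise, with the match, which begins at −53, in capitals.
LUX: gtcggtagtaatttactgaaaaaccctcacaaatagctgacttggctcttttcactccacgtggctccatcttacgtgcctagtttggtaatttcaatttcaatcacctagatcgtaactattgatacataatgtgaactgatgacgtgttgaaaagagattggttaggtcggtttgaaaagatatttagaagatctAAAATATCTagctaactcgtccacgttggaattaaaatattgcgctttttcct

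Light signalling genes were also divided: of 19 tested, 8 rose and 7 fell, where 12.8% of all genes rose and 14.1% fell. The photoprotection gene ELIP2 fell from 15.7 and 14.9 CPM to 3.12 and 2.50 CPM (−2.42 ± 0.20, adjusted p = 4.10e-12), and HYH, a close relative of HY5, fell by 0.68 on the log2 scale (adjusted p = 0.000139). The photoreceptor gene PHYA rose from 108 and 109 CPM to 173 and 161 CPM (0.63 ± 0.06, adjusted p = 8.36e-11). BBX24, a B-box regulator of photomorphogenesis, rose from 109 and 109 CPM to 184 and 186 CPM (0.76 ± 0.06, adjusted p = 2.20e-12), more than in the mean of the other genotypes (difference 0.32, adjusted p = 0.0201), a call that was lost when any 1 mrg1 mrg2 library was left out. PHYB, the photoreceptor that also senses temperature, was at 89.0 and 91.3 CPM before and 84.1 and 81.5 CPM after warming (−0.12 ± 0.07, adjusted p = 0.215). The G-box CACGTG, which PIFs and HY5 bind, lay in 8.88% of the promoters of tested genes, 12.1% of those that rose at least 2-fold and 11% of those that fell at least 2-fold.

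**Figure D2:**
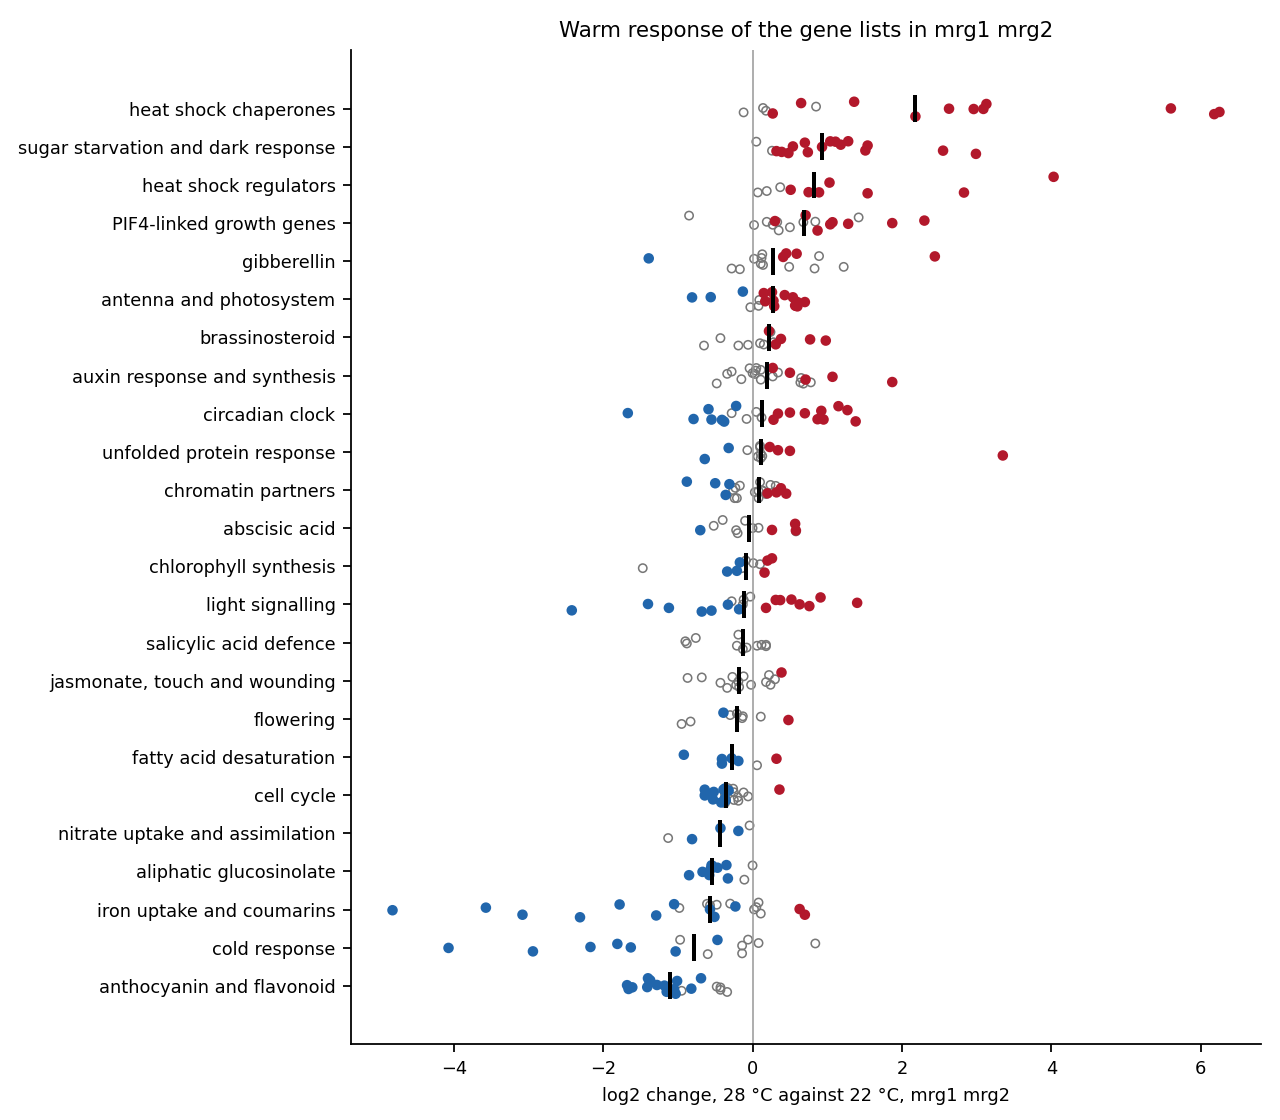
Log2 change between 28 °C and 22 °C in mrg1 mrg2 of every tested gene of 24 lists. Filled points passed the test (red rose, blue fell), open points did not, and black bars are medians, which run from −1.10 for flavonoid genes to 2.18 for heat shock chaperones.

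Flavonoid enzyme genes fell together. Of 22 listed genes 20 were tested, 15 fell and none rose, with a median log2 change of −1.10, where 14.1% of all genes fell. F3H, an early enzyme gene of the branch, went from 71.4 and 67.8 CPM to 21.8 and 22.5 CPM (−1.66 ± 0.09, adjusted p = 5.88e-18). Chalcone synthase, CHS, went from 351 and 329 CPM to 153 and 155 CPM (−1.15 ± 0.06, adjusted p = 2.60e-18), and PAL1, the entry enzyme of phenylpropanoid synthesis, from 334 and 324 CPM to 142 and 147 CPM (−1.18 ± 0.06, adjusted p = 2.34e-19). In each of them every warm library lay below every cool one. The 5 tested members that did not pass were all transcription factor genes (MYB12, MYB111, PAP1, TT8 and EGL3), with log2 changes of −0.34 to −0.95. MYB12 stood at 8.92 and 7.19 CPM against 6.16 and 5.34 CPM (−0.48 ± 0.22, adjusted p = 0.111).

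Cold acclimation genes fell, some of them strongly. Of 16 listed genes 14 were tested, 7 fell and none rose, where 14.1% of all genes fell, with a median of −0.78. COR15B and COR15A encode chloroplast proteins that protect membranes from freezing. COR15B went from 13.7 and 11.1 CPM to 0.506 and 1.02 CPM (−4.07 ± 0.35, adjusted p = 4.29e-12), and COR15A from 15.4 and 14.5 CPM to 1.43 and 2.61 CPM (−2.94 ± 0.29, adjusted p = 1.31e-10). RD29A went from 64.7 and 64.0 CPM to 19.5 and 17 CPM (−1.81 ± 0.10, adjusted p = 9.72e-17), and the dehydrin gene XERO2 from 37.2 and 38.3 CPM to 13.3 and 11 CPM (−1.63 ± 0.11, adjusted p = 1.15e-14). The CBF genes, whose products activate these targets in the cold, were near the floor: CBF2 had 0.415 to 1.25 CPM in the 4 libraries and did not pass (adjusted p = 0.321), and CBF1 and CBF3 were not tested.

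KIN2 fell less in mrg1 mrg2 than in WT. Its level went from 88.2 and 82.2 CPM to 40.5 and 43.4 CPM, and in WT from 87.9 and 83.8 CPM to 25.1 and 19.3 CPM (difference 0.91, adjusted p = 2.95e-05). The cool libraries of the genotypes overlapped and the warm ones did not. The neighbouring copy KIN1, at 3.73 and 4.21 CPM before and 0.675 and 1.14 CPM after warming, differed from WT the other way (difference −1.83, adjusted p = 0.0355), a call lost without 3 of the 4 mrg1 mrg2 libraries in turn. How reads shared by near copies such as KIN1 and KIN2 or COR15A and COR15B were counted is not given in the sources used.

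CBF proteins bind the CRT/DRE element, searched as ACCGAC or GCCGAC on both strands. Among the 14 cold genes COR15A, RD29A, GOLS3 and XERO2 held it, against 8.72% of all promoters, 11.4% of those of genes that fell at least 2-fold and 11.1% of those that rose at least 2-fold. The 250 bases before the start of COR15A (chr2:17712331-17712580, minus strand) and RD29A (chr5:21240467-21240716, plus strand) are shown in gene direction because both genes fell over 3-fold and held several copies, printed in capitals. Copies began at −142 and −80 in COR15A, the first of them on the opposite strand, and at −141, −91 and −34 in RD29A. A further copy in RD29A began at position 3 after the gene start, outside the stretch shown.
COR15A: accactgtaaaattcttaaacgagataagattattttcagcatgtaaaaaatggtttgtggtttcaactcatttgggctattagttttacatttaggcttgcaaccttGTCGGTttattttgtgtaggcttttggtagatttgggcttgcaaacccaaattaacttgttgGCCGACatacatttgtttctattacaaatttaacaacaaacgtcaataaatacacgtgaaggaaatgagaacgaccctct
RD29A: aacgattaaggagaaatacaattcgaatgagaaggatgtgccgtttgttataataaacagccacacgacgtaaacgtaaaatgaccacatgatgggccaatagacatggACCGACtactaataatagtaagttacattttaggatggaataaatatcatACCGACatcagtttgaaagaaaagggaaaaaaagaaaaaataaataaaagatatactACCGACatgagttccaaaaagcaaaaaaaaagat

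Iron uptake genes of the root fell strongly, while the iron storage gene FER1 rose. Of 24 listed genes 21 were tested, 10 fell and 2 rose, where 14.1% of all genes fell and 12.8% rose. CYP82C4, a cytochrome P450 gene of coumarin synthesis, went from 12.1 and 13.3 CPM to 0.506 and 0.341 CPM (−4.82 ± 0.36, adjusted p = 1.17e-13). It had the largest fall among genes of at least 5 CPM whose libraries did not overlap between temperatures. The transporter gene IRT1 went from 38.8 and 38.6 CPM to 3.46 and 2.95 CPM (−3.57 ± 0.18, adjusted p = 7.59e-19), and the ferric reductase gene FRO2 from 18.4 and 20.7 CPM to 3.88 and 3.97 CPM (−2.31 ± 0.18, adjusted p = 6.83e-13). OPT3, which loads iron into phloem, went from 125 and 124 CPM to 60.0 and 59.7 CPM (−1.05 ± 0.07, adjusted p = 7.57e-16). The ferritin gene FER1 rose from 121 and 129 CPM to 203 and 204 CPM (0.70 ± 0.07, adjusted p = 9.27e-11), and FRO3, a mitochondrial ferric reductase gene, rose by 0.63 ± 0.08 (adjusted p = 1.80e-08). FRU, the bHLH regulator of this pathway, did not pass (−0.30 ± 0.23, adjusted p = 0.357).

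Markers of root, shoot and seed tissue were followed beside these root genes. Of 15 root marker genes tested (16 listed) none passed in mrg1 mrg2, where 26.9% of all genes did. The summed level of the list was 134 and 127 CPM at 22 °C and 127 and 122 CPM at 28 °C. The endodermis gene CASP1 was at 22.1 and 21.9 CPM before and 19.9 and 22.5 CPM after warming (−0.06 ± 0.12, adjusted p = 0.761). In WT 5 of the 15 fell (EXPA7, EXPA18, COBL9, LRX1 and CASP1), with log2 changes of −0.39 to −1.06, where 13.7% of all genes fell in WT. EXPA18 and LRX1, both of root hairs, differed between the genotypes (above WT). The EXPA18 difference was lost with DESeq2 and without 3 of the 4 mrg1 mrg2 libraries in turn (adjusted p up to 0.111), and the LRX1 difference without replicate 1 at 28 °C (0.84, adjusted p = 0.0856). The part of root tissue in the results against WT was not tested. Of the shoot markers PDF1 (−0.16 ± 0.06, adjusted p = 0.0339) and PDF2 (−0.27 ± 0.07, adjusted p = 0.00217) fell among 5 tested, where 14.1% of all genes fell, and CLV3 and WUS are listed at 0. Seed storage transcripts summed to 1.76 and 2.32 CPM at 22 °C and 3.04 and 7.95 CPM at 28 °C, and CRU3, the only one that passed, had 0, 0, 0 and 12 reads, so its call rests on 1 library.

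Genes of aliphatic glucosinolate synthesis, a defence pathway of the cabbage family, fell in mrg1 mrg2 but less than in WT. Of 11 genes 9 fell and none rose, where 14.1% of all genes fell. The median log2 change was −0.54, and in WT all 11 fell, with a median of −0.89. For 5 of the 11 the change in mrg1 mrg2 lay above that in WT, where 2.37% of all genes did. CYP79F1, the first enzyme of the core pathway, went from 100 and 103 CPM to 59.1 and 53.5 CPM in mrg1 mrg2, and from 137 and 133 CPM to 48.4 and 50.9 CPM in WT (difference 0.60, adjusted p = 0.000197). BCAT4, which starts the chain elongation of methionine, went from 110 and 108 CPM to 84.6 and 86.4 CPM, and in WT from 138 and 131 CPM to 73.1 and 67.5 CPM (difference 0.58, adjusted p = 9.01e-05). For both genes WT was higher at 22 °C and lower at 28 °C. The members that did not pass in mrg1 mrg2 were CYP79F2 (−0.11 ± 0.11, adjusted p = 0.498) and the regulator gene MYB29 (0.00 ± 0.17, adjusted p = 0.989). The median in pif4 was −0.41 and in mrg1 mrg2 pif4 −0.79, so the double mutant lay between them, and none of the 11 differed from the mean of the other genotypes.

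Nitrate assimilation and fatty acid desaturation completed the falls. The nitrite reductase gene NIR1 went from 532 and 524 CPM to 304 and 299 CPM (−0.81 ± 0.05, adjusted p = 9.67e-16), and 3 of 5 nitrate genes fell, where 14.1% of all genes fell. NIA2 (−0.04 ± 0.04, adjusted p = 0.548) and NRT2.1 (−1.13 ± 0.49, adjusted p = 0.0856) did not pass. Of 7 desaturase genes 5 fell and 1 rose, where 14.1% of all genes fell and 12.8% rose. FAD8, the plastid desaturase known to be lower in warmth, went from 65.9 and 66.0 CPM to 35.4 and 34.4 CPM (−0.92 ± 0.09, adjusted p = 5.93e-11), while FAD2 of the endoplasmic reticulum rose (0.32 ± 0.05, adjusted p = 5.48e-07) and FAD3 did not pass (0.06 ± 0.06, adjusted p = 0.48).

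Photosynthesis genes rose less in mrg1 mrg2 than in WT. Of 18 antenna and photosystem genes 12 rose and 3 fell, where 12.8% of all genes rose and 14.1% fell. The median log2 change was 0.27, and in WT 15 rose and 2 fell, with a median of 0.49. For 14 of the 18 the change lay below that in WT, where 2.44% of all genes did. LHCB4.2, a minor antenna protein of photosystem II, went from 1550 and 1550 CPM to 2360 and 2670 CPM in mrg1 mrg2 (0.70 ± 0.04, adjusted p = 1.50e-15), and from 1140 and 1100 CPM to 2200 and 2190 CPM in WT (difference −0.27, adjusted p = 0.00689). LHCB3 went from 3080 and 2930 CPM to 4160 and 4760 CPM, and in WT from 2290 and 2100 CPM to 4020 and 3930 CPM (difference −0.29, adjusted p = 0.00488). The LHCB3 difference did not pass with DESeq2 or without replicate 1 at 22 °C (−0.25, adjusted p = 0.051). For both genes the genotypes stood further apart at 22 °C, where mrg1 mrg2 was higher, than at 28 °C.

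The Rubisco small subunit genes fell. RBCS1A went from 11300 and 11400 CPM to 7380 and 7960 CPM (−0.56 ± 0.03, adjusted p = 7.35e-16), and in WT from 10500 and 10500 CPM to 9180 and 9060 CPM (difference −0.36, adjusted p = 3.75e-06). RBCS1B fell alike in both genotypes (−0.81 ± 0.05 in mrg1 mrg2 and −0.81 in WT, difference 0.00, adjusted p = 0.991). The members without a call were PSBO1 (0.08 ± 0.04, adjusted p = 0.121), PSBP1 (0.09 ± 0.04, adjusted p = 0.0638) and the Rubisco activase gene RCA (−0.03 ± 0.03, adjusted p = 0.583). Genes of the antenna and RBCS families have near copies, and how shared reads were counted is not given. No member of the list differed from the mean of the other genotypes: the medians were 0.31 in pif4 and 0.06 in mrg1 mrg2 pif4.

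Chlorophyll synthesis genes were split, with 3 rises and 3 falls among 11, where 12.8% of all genes rose and 14.1% fell. In WT 7 rose and none fell, in pif4 4 rose and 2 fell, and in mrg1 mrg2 pif4 1 rose and 3 fell. For 5 of the 11 the change lay below that in WT, where 2.44% of all genes did. PORB, the light-dependent protochlorophyllide oxidoreductase, went from 635 and 612 CPM to 766 and 722 CPM in mrg1 mrg2 (0.26 ± 0.05, adjusted p = 4.62e-05) and from 350 and 337 CPM to 664 and 645 CPM in WT (difference −0.67, adjusted p = 5.94e-09). CHLI1, a subunit of magnesium chelatase, fell from 437 and 445 CPM to 353 and 343 CPM, and in WT was at 338 and 340 CPM before and 352 and 330 CPM after warming (difference −0.35, adjusted p = 0.00169). At 28 °C the CHLI1 libraries of mrg1 mrg2 and WT overlapped. The log2 changes in pif4 and mrg1 mrg2 pif4 were −0.33 and −0.44 for CHLI1, and 0.48 and 0.47 for PORB.

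Genes of the unfolded protein response, which keeps secretory proteins folded, moved in both directions in mrg1 mrg2. Of 13 tested (14 listed) 4 rose and 2 fell, where 12.8% and 14.1% of all genes did, and in WT 9 rose and 1 fell. In pif4 7 rose and 1 fell, and in mrg1 mrg2 pif4 5 rose and 1 fell. The median log2 change was 0.11 in mrg1 mrg2, 0.37 in WT, 0.15 in pif4 and 0.13 in mrg1 mrg2 pif4. No member differed from the mean of the other genotypes. TIN1, a marker of stress in the endoplasmic reticulum, went from 0.311 and 0.664 CPM to 5.74 and 4.2 CPM (3.35 ± 0.43, adjusted p = 9.30e-08) and the calreticulin gene CRT1 from 234 and 223 CPM to 276 and 261 CPM (0.23 ± 0.06, adjusted p = 0.00174). HSP90.7, the HSP90 of the endoplasmic reticulum, stood at 405 and 417 CPM before and 458 and 428 CPM after warming (0.11 ± 0.05, adjusted p = 0.0947). In WT it went from 329 and 336 CPM to 467 and 479 CPM (difference −0.40, adjusted p = 0.000245). BIP1, the HSP70 of the same compartment, differed likewise (difference −0.26, adjusted p = 0.0417), a call also lost without 3 of the 4 mrg1 mrg2 libraries in turn.

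Cell cycle genes mostly fell or did not pass in mrg1 mrg2. Of 21 genes 10 fell and 1 rose in mrg1 mrg2 (median −0.36), where 14.1% of all genes fell and 12.8% rose. In WT 5 rose and 1 fell (median 0.29). For 8 of the 21 the change lay below that in WT, where 2.44% of all genes did. KN, the syntaxin that builds the new wall between daughter cells, went from 45.1 and 52.3 CPM to 37.3 and 40.8 CPM (−0.32 ± 0.10, adjusted p = 0.00968), and in WT from 27.1 and 26.7 CPM to 40.5 and 36.6 CPM (difference −0.85, adjusted p = 0.000128). MCM2, of the replicative helicase, went from 36.8 and 32.2 CPM to 25.7 and 25.8 CPM, and in WT from 27.3 and 24.3 CPM to 33.8 and 28.8 CPM (difference −0.71, adjusted p = 0.00402). MCM7 (−0.52 ± 0.10, adjusted p = 0.000139) and CDKB2;2 (−0.53 ± 0.15, adjusted p = 0.00892) fell too, and CYCD3;1 was the member that rose (0.36 ± 0.10, adjusted p = 0.00557). With 1 mrg1 mrg2 library left out, the calls of KN, CDKB2;2 and CYCD3;1 were each lost in 2 of 4 cases and that of MCM2 in 1 (adjusted p up to 0.223, 0.211, 0.168 and 0.0895), while the differences of KN and MCM2 from WT still passed. The medians were −0.31 in pif4, with 9 falls, and −0.34 in mrg1 mrg2 pif4, with 8 falls, and no member differed from the mean of the other genotypes. The WT libraries at 22 °C had the lowest KN levels of the genotypes: the means were 45.8 ± 1.48 CPM in pif4 and 39.7 ± 4.91 CPM in mrg1 mrg2 pif4 at 22 °C (SD, n = 2).

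**Figure D3:**
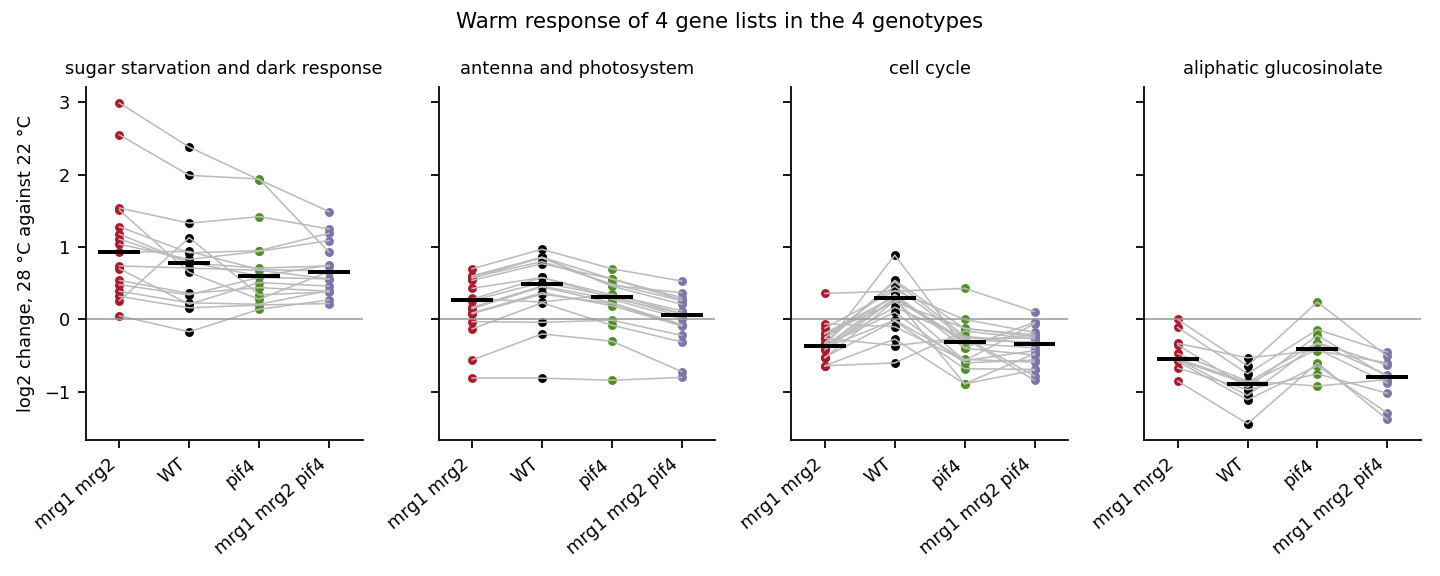
Log2 change between 28 °C and 22 °C of each tested gene of 4 lists in the 4 genotypes, with grey lines joining a gene and black bars at medians. The cell cycle median is −0.36 in mrg1 mrg2 and 0.29 in WT, and the starvation median is highest in mrg1 mrg2 at 0.93.

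Chromatin genes that act with MRG proteins or in warmth gave calls at close to the rate over all genes. All 22 were tested, 4 rose and 4 fell, where 12.8% of all genes rose and 14.1% fell. HTA11, an H2A.Z histone gene, fell from 44.7 and 48.0 CPM to 23.5 and 27.0 CPM (−0.88 ± 0.10, adjusted p = 6.65e-09), and in WT stood at 26.9 and 29.5 CPM before and 26.0 and 22.8 CPM after warming (difference −0.67, adjusted p = 0.00367). HTA11 fell in pif4 and mrg1 mrg2 pif4 too, by log2 changes of −0.64 and −0.78. Its difference from the mean of the other genotypes did not pass (−0.34, adjusted p = 0.263). INO80, a remodeller that acts on H2A.Z, went from 69.3 and 70.9 CPM to 88.8 and 94.3 CPM (0.38 ± 0.07, adjusted p = 5.34e-05). Of the acetyltransferase pair HAM2 rose (0.45 ± 0.15, adjusted p = 0.0264) and HAM1 did not pass (0.10 ± 0.12, adjusted p = 0.563). The HAM2 call was lost with DESeq2 and without 3 of the 4 mrg1 mrg2 libraries in turn (adjusted p up to 0.33).

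Defence lists gave few calls, where 26.9% of all genes changed in either direction. None of 11 salicylic acid genes passed, and 1 of 15 jasmonate, touch and wounding genes rose (TCH4, 0.38 ± 0.14, adjusted p = 0.0391), a call lost without any 1 mrg1 mrg2 library (adjusted p 0.106 to 0.148). Of 12 abscisic acid genes 3 rose and 1 fell, where 12.8% of all genes rose and 14.1% fell. The abscisic acid marker RD29B went from 7.88 and 8.96 CPM to 13.1 and 11.9 CPM (0.58 ± 0.17, adjusted p = 0.0077). Of 9 flowering genes tested SVP rose (0.48 ± 0.08, adjusted p = 1.15e-05) and FLM fell (−0.39 ± 0.11, adjusted p = 0.00461), both temperature-linked repressors of flowering. With 1 mrg1 mrg2 library left out, the calls of RD29B (adjusted p up to 0.1) and FLM (adjusted p up to 0.0883) were each lost in 2 of 4 cases.

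The warm response of mrg1 mrg2 was set against that of WT gene by gene, in the same fit, to ask where loss of both MRG genes goes with another response. The pair of responses shares no libraries. In WT 2666 genes rose (13.3%) and 2742 fell (13.7%). The genes that rose in both were 1444, which is 56.1% of those in mrg1 mrg2 and 54.2% of those in WT, and the genes that fell in both were 1509, or 53.2% and 55.0%. Opposite calls were rare: 45 genes rose in mrg1 mrg2 and fell in WT and 55 did the reverse. The test of the difference itself called 965 genes (4.81%), 475 with a change above that in WT (2.37%) and 490 with a change below it (2.44%). With 1 mrg1 mrg2 or WT library left out at a time, 309 to 397 genes lay above WT and 269 to 405 below it. The lowest counts were 309 above without replicate 1 of WT at 22 °C, and below 269 without replicate 2 and 309 without replicate 1 of WT at 22 °C, 312 without replicate 1 of WT at 28 °C, and 274 and 300 without replicate 1 or 2 of mrg1 mrg2 at 22 °C.

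Genes called in 1 genotype alone made up most of these differences. Of the 475 genes above WT, 194 fell in WT with no call in mrg1 mrg2, 105 rose in mrg1 mrg2 with no call in WT, and 83 fell in both. Of the 490 below WT, 167 fell in mrg1 mrg2 with no call in WT, and 165 rose in WT with no call in mrg1 mrg2. A further 41 genes above WT and 55 below it rose in both genotypes.

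**Figure D4:**
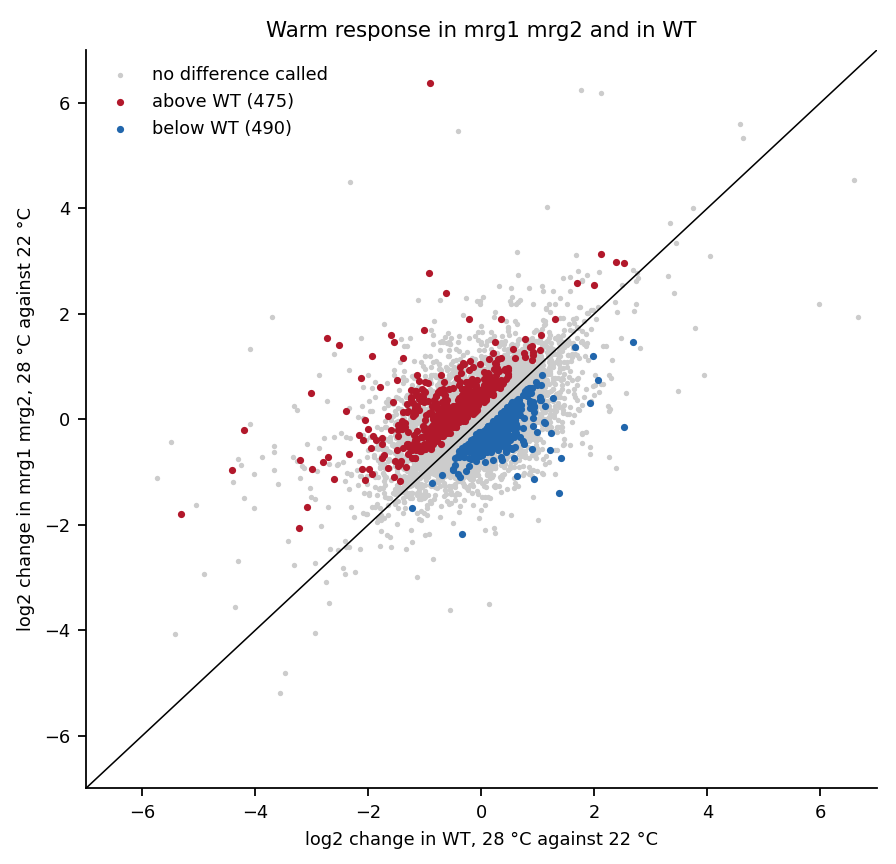
Log2 change between 28 °C and 22 °C of each of 20075 genes in WT (x axis) and in mrg1 mrg2 (y axis). Red points are the 475 genes whose change lies above that in WT, blue points the 490 below it, and the line marks equal change.

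The 3 leading genes above WT by p were high in WT at 22 °C. AT4G01870, annotated as a tolB-like protein, went from 110 and 117 CPM to 10.1 and 14.7 CPM in WT and from 23.1 and 26.3 CPM to 15.1 and 13.8 CPM in mrg1 mrg2 (difference 2.44 ± 0.18, adjusted p = 9.11e-12). In pif4 its mean was 17.3 ± 0.417 CPM at 22 °C and 12.4 ± 0.218 CPM at 28 °C (SD, n = 2), so WT at 22 °C stood apart from the mutants. PRP3, a proline-rich cell wall protein gene, showed the same pattern, from 61.8 and 62.0 CPM to 28.4 and 23.5 CPM in WT and from 14.7 and 16.9 CPM to 25 and 21.1 CPM in mrg1 mrg2 (difference 1.8 ± 0.16, adjusted p = 7.84e-10). UGT75B1, a glucosyltransferase gene, fell in WT from 75.1 and 72.3 CPM to 30.3 and 35.8 CPM and rose in mrg1 mrg2 from 25.5 and 25.2 CPM to 34.5 and 35.2 CPM (difference 1.62 ± 0.14, adjusted p = 7.85e-10). For these genes the log2 change in pif4 was −0.48, 0.31 and 0.75, nearer to mrg1 mrg2 than to WT.

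FER1 was another gene with opposite calls. It fell in WT from 194 and 186 CPM to 150.0 and 164 CPM and rose in mrg1 mrg2, as given above (difference 0.98 ± 0.09, adjusted p = 5.34e-09). In pif4 and mrg1 mrg2 pif4 its log2 changes were 0.69 and 0.64. HIK, a kinesin gene of cytokinesis, had the reverse pattern, with a fall in mrg1 mrg2 from 48.6 and 45.3 CPM to 33.0 and 30.8 CPM and a rise in WT from 25.6 and 24.2 CPM to 36.1 and 36.3 CPM (difference −1.10 ± 0.14, adjusted p = 9.09e-07). AT3G16670, a gene of the Pollen Ole e 1 family, fell slightly in mrg1 mrg2, from 72.5 and 80.0 CPM to 67.9 and 60.4 CPM, and rose in WT from 59.6 and 62.6 CPM to 117 and 127 CPM (difference −1.24 ± 0.11, adjusted p = 1.19e-09). The plastid chaperonin gene CPN60A rose in WT from 414 and 409 CPM to 573 and 573 CPM and was at 627 and 610 CPM before and 582 and 604 CPM after warming in mrg1 mrg2 (difference −0.54 ± 0.07, adjusted p = 8.56e-07). In pif4 the log2 changes were −0.47 for HIK, −0.21 for AT3G16670 and 0.02 for CPN60A. In mrg1 mrg2 pif4 they were −0.51, −0.30 and −0.04, so for these genes the other mutants lay nearer to mrg1 mrg2 than to WT.

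The response of mrg1 mrg2 was also set against the mean of those in WT, pif4 and mrg1 mrg2 pif4, a mean that includes a line with the same MRG mutations. Here 84 genes lay above the mean (0.418%) and 30 below it (0.149%), 0.568% in all. Of the 84, 69 were also above WT, and of the 30, 23 were also below WT. With 1 mrg1 mrg2 library left out at a time, 41 to 56 genes lay above the mean and 9 to 17 below it. Among the 84, 55 rose in mrg1 mrg2 and 12 fell.

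ASN1 and SEN1 of the starvation list were among the genes above the mean. ASN1 rose by 2.99 in mrg1 mrg2, 2.38 in WT, 1.93 in pif4 and 1.49 in mrg1 mrg2 pif4 on the log2 scale (difference from the mean 1.05 ± 0.10, adjusted p = 9.44e-09). Its cool level was lowest in mrg1 mrg2, at 11.2 and 11.3 CPM, against 19.2 and 22.6 CPM in WT, 36.7 ± 2.40 CPM in pif4 and 76.0 ± 0.342 CPM in mrg1 mrg2 pif4 (SD, n = 2). Its warm level in mrg1 mrg2, at 86.6 and 92.2 CPM, was also the lowest, so the larger change did not bring a higher level. SEN1 followed the same order at 22 °C, with 27.4 ± 2.38 CPM in pif4 and 48.0 ± 5.24 CPM in mrg1 mrg2 pif4 (difference from the mean 0.93 ± 0.13, adjusted p = 4.35e-05). TPS8 was the third member of the list above the mean (difference 0.44, adjusted p = 0.0028), and BGLU30 was the member below WT (difference −0.87, adjusted p = 0.0379). Both calls depended on single libraries: TPS8 lost it without replicate 1 of either temperature (adjusted p up to 0.0768), and BGLU30 without replicate 2 at 22 °C or replicate 1 at 28 °C (adjusted p up to 0.164) and with DESeq2.

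PR4, GSTF6 and AT3G15356 reached their highest warm levels in mrg1 mrg2. PR4, a chitin-binding defence protein gene, went from 41.3 and 41.7 CPM to 82.1 and 88.2 CPM (1.04 ± 0.08), and in WT from 43.1 and 39.7 CPM to 34.4 and 32.9 CPM (−0.30 ± 0.09). Its warm mean was 48.8 ± 2.79 CPM in pif4 and 55.9 ± 1.66 CPM in mrg1 mrg2 pif4, and the difference from the mean response was 0.91 ± 0.10 (adjusted p = 9.82e-08). GSTF6, a glutathione S-transferase gene, went from 21.4 and 22.9 CPM to 53.9 and 43.0 CPM in mrg1 mrg2 and stayed between 7.11 and 11.3 CPM in the 4 WT libraries (difference from the mean 1.63 ± 0.17, adjusted p = 9.82e-08). AT3G15356, annotated as a legume lectin gene, did not pass in mrg1 mrg2 (0.13 ± 0.08, adjusted p = 0.196) and fell in each of the other genotypes, by −0.89 in WT, −0.73 in pif4 and −1.32 in mrg1 mrg2 pif4 (difference from the mean 1.12 ± 0.09, adjusted p = 1.51e-10). AT2G05540, a glycine-rich protein gene, rose from 92.4 and 94.6 CPM to 208 and 210 CPM (difference from the mean 0.62 ± 0.07, adjusted p = 2.63e-06). Its cool level was the lowest of the genotypes and its warm mean of 209 CPM lay below the 251 CPM in pif4 and the 308 CPM in mrg1 mrg2 pif4.

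**Figure D5:**
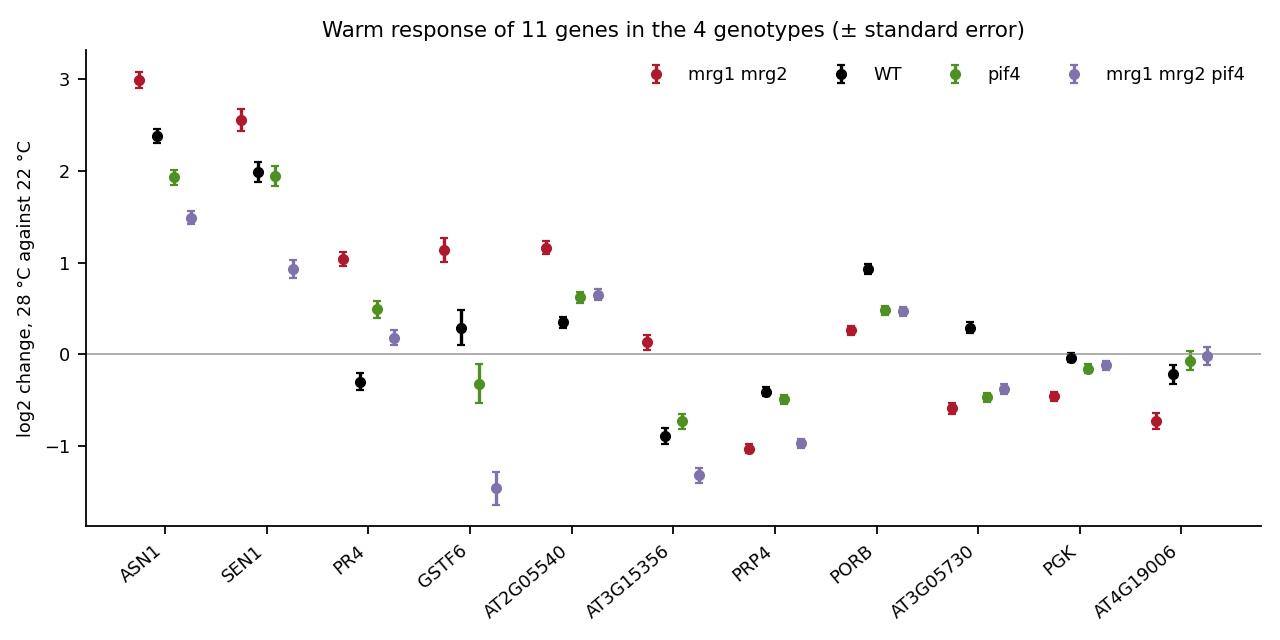
Log2 change between 28 °C and 22 °C of 11 genes in the 4 genotypes, with standard errors as bars. The red points of mrg1 mrg2 lie highest for the 6 genes on the left, from ASN1 (2.99) to AT3G15356 (0.13), and lowest for the 5 on the right, from PRP4 (−1.03) to AT4G19006 (−0.73).

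Genes below the mean included cell wall, chlorophyll and glycolysis genes. PRP4, a proline-rich cell wall protein gene, went from 754 and 783 CPM to 376 and 374 CPM in mrg1 mrg2 and from 840 and 885 CPM to 667 and 635 CPM in WT (difference from the mean −0.41 ± 0.05, adjusted p = 1.37e-05). Its log2 change of −1.03 in mrg1 mrg2 was close to the −0.97 in mrg1 mrg2 pif4 and larger in size than the −0.49 in pif4. PGK (AT1G79550), a phosphoglycerate kinase gene, went from 463 and 442 CPM to 331 and 329 CPM, and in WT stood at 319 and 301 CPM before and 303 and 300.0 CPM after warming (difference from the mean −0.35 ± 0.06, adjusted p = 0.000749). AT4G19006, annotated as a proteasome component, fell from 69.6 and 70.2 CPM to 43.5 and 40.6 CPM, where WT ran from 27.4 to 35.6 CPM in its 4 libraries (difference −0.63 ± 0.11, adjusted p = 0.00146). For PGK and AT4G19006 the libraries of mrg1 mrg2 lay above those of WT at both temperatures. PORB was in this group too (difference from the mean −0.37 ± 0.05, adjusted p = 8.12e-05), and AT3G05730, a defensin-like gene, fell in all 3 mutants and rose in WT (difference −0.40 ± 0.06, adjusted p = 0.000298).

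The response of the chaperone genes HSP90.1 and HSP70 lay above that in WT. They were 2 of 15 chaperone genes tested, where 2.37% of all genes lay above WT, and none differed from the mean of the other genotypes. HSP90.1 reached 83.1 and 70.2 CPM in mrg1 mrg2 and 80.0 and 69.8 CPM in WT at 28 °C, from 6.64 and 11 CPM and 15.8 and 18.7 CPM at 22 °C (difference 1.02 ± 0.19, adjusted p = 0.000626). The warm HSP90.1 libraries of the genotypes overlapped and the cool ones did not. HSP70 went from 17.7 and 16.4 CPM to 144 and 122 CPM in mrg1 mrg2. In WT it went from 36.8 and 35.3 CPM to 207 and 206 CPM. Its level was thus lower in mrg1 mrg2 at both temperatures, and the larger change did not bring a higher warm level. The HSP70 difference was 0.45 (adjusted p = 0.0192) and did not pass with DESeq2, without replicate 2 at 22 °C (0.4, adjusted p = 0.125) or without replicate 1 at 28 °C (0.32, adjusted p = 0.153). A p above the threshold for the remaining members does not show that their responses are equal.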

How the data were processed

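RNA-seq libraries of Arabidopsis seedlings were made with a KAPA stranded mRNA kit, per the labels' protocols. The authors deposited 1 table of raw read counts per gene for 16 libraries (33602 genes). The submitters' processing notes name cutadapt, HISAT2, SAMtools, featureCounts and the TAIR10 build. Versions, the strand setting and the handling of reads shared by near copies are not given in the labels or notes, so a gene and its antisense neighbour may share reads.

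Library totals ran from 7186066 to 11363353 counts. Genes were kept by edgeR's filterByExpr (minimum count 10, minimum total 15), which left 20075. Counts were scaled by TMM and all 16 libraries, 8 groups of 2, were fitted together with edgeR 4.0.16 (R 4.3.3, quasi-likelihood, 8 residual degrees of freedom). CPM are counts per 1000000 of the scaled library size. The warm response (28 °C minus 22 °C) in mrg1 mrg2, its difference from that in WT and its difference from the mean of the other genotypes were tested two-sided, with Benjamini-Hochberg adjustment and a threshold of 0.05. The fit was tested on simulated data.

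Genes were described in 27 lists with 420 different genes, of which 383 were tested. The genes and lists were chosen with earlier results of these data known. The 15 largest changes in each direction were taken among called genes at or above 5 CPM whose libraries did not overlap between temperatures. Named genes were MRG1, MRG2, PIF4, genes among these largest changes, list members by smallest p and leading genes of the differences. The remaining ones, such as CCA1, ELF4, HFR1 and PIF3, were named after their values were seen. Gene names and promoter sequences came from RefSeq (TAIR10.1), which had an entry for 32835 genes. Alternatives were DESeq2 1.42.0, RLE size factors, other filters, fewer libraries, a replicate block, leaving out the ribosomal RNA gene and leaving out each library.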

Additional observations from a re-analysis of the deposited data

Results flagged for a closer look

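The values below are log2 changes in mrg1 mrg2 minus those in WT, or minus the mean of WT, pif4 and mrg1 mrg2 pif4, and each was set apart because the test of the difference itself passed (edgeR, adjusted over 20075 genes). The part of any technical feature of the libraries in them was not tested.

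Against WT, the change lay above by 2.44 for AT4G01870, 1.8 for PRP3, 1.62 for UGT75B1 and 1.33 for PR4. It also lay above by 1.3 for EXPA18, 1.15 for LRX1, 1.02 for HSP90.1, 0.98 for FER1 and 0.91 for KIN2. Smaller positive differences were 0.64 for RVE2, 0.60 for CYP79F1, 0.58 for BCAT4 and 0.45 for HSP70. Root, defence, glucosinolate, iron and chaperone genes were thus all among them.

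The change lay below that in WT by a difference of −1.83 for KIN1, −1.24 for AT3G16670 and −1.10 for HIK. For BGLU30 it was −0.87, for KN −0.85, for MCM2 −0.71 and for PIF3 −0.70. PORB and HTA11 both had −0.67, CPN60A −0.54, HSP90.7 −0.40 and EXPA8 −0.37. The remaining photosynthesis and chaperone genes had −0.36 (RBCS1A), −0.35 (CHLI1), −0.29 (LHCB3), −0.27 (LHCB4.2) and −0.26 (BIP1).

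Against the mean of the other 3 genotypes the differences were 1.63 for GSTF6, 1.12 for AT3G15356, 1.05 for ASN1, 0.93 for SEN1 and 0.91 for PR4. They were 0.62 for AT2G05540, 0.55 for CCA1, 0.44 for TPS8, 0.33 for LHY and 0.32 for BBX24. Below the mean they were −0.63 for AT4G19006, −0.41 for PRP4, −0.40 for AT3G05730, −0.37 for PORB and −0.35 for PGK.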

How the results depend on the processing

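Over the alternatives run, the warm response in mrg1 mrg2 held 1731 to 2731 genes that rose and 2010 to 3025 that fell, against 2574 and 2835. DESeq2 gave 1731 and 2061. Of the genes that rose with DESeq2, 1730 of 1731 also rose with edgeR. With 1 library left out at a time, 1827 to 1954 rose and 2010 to 2184 fell, and the lone library of a group was then assumed to vary like the others. Of differences from WT, DESeq2 called 300 above and 332 below, and with 1 mrg1 mrg2 or WT library left out 309 to 397 lay above and 269 to 405 below. Against the mean of the other genotypes the counts with 1 library left out were 41 to 56 above and 9 to 17 below, against 84 and 30. The cause of these drops was not tested. The fits with 1 library left out use fewer samples, while DESeq2 used all 16 libraries.

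Deviations of same-numbered libraries were weakly correlated: r was 0.0505 between temperatures in mrg1 mrg2, and over 28 pairs of groups it ran from −0.0255 to 0.155, positive in 27 and over 0.1 in 6. The ribosomal RNA share was lower in replicate 1 than in replicate 2 in all 8 groups. The labels give no shared batch for a number and not every pair exceeded 0.1, so the numbers were not treated as pairs. With a replicate block 2731 genes rose and 3025 fell, 553 lay above WT and 601 below it, and 113 lay above the mean of the other genotypes and 55 below it.

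Of 1587 values of 147 named genes under the alternatives, 1518 kept direction and side of the threshold, 54 lost the call, 8 gained it and 7 changed sign. The sign changes were all in genes without a call. With 1 mrg1 mrg2 library left out at a time, the log2 change ran from −0.06 to 0.21 for HSFA1A, from −0.48 to 0.07 for MRG1, from −0.13 to 0.11 for MYB29, from 0.00 to 0.19 for HAM1, from −0.08 to 0.00 for NIA2 and from −0.14 to 0.03 for CASP1. The RBCS1B difference from WT ran from −0.06 to 0.06. With DESeq2 the MYB29 change was 0.00. With DESeq2 the calls of CCA1, CDKB2;2, HAM2, HSFA1B, PIF3, TCH4, YUC8 and AT3G16670 were lost, as were the differences from WT of BGLU30, EXPA8, EXPA18, HSP70, LHCB3 and PIF3. Leaving out a single library also ended, in at least 1 case, the calls of AT1G53540, CRU3, CYCD3;1, ELF4, FLM, KN, MCM2, PDF1, PDF2, PRR9, RD29B and TOC1, and the differences of BGLU30, BIP1, EXPA8, EXPA18, HSP70, KIN1, LHCB3, LRX1 and PIF3 from WT and of BBX24, LHY and TPS8 from the mean. Depth limits genes at a few reads, such as MRG2, HSP17.4, HSP17.6II and HSP17.6A.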

Other observations

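Gene families grouped by words in their product name, chosen after values were seen, add to the lists and are given as a description with no test. Over all genes 12.8% rose and 14.1% fell in mrg1 mrg2, 2.37% lay above WT and 2.44% below it. These shares were not matched to the level of a family's genes. Of 52 genes named as proteasome or regulatory particle, among them proteins named for the PCI domain, 31 fell and 1 rose in mrg1 mrg2, with a median log2 change of −0.32, and their summed level went from 4646 and 4686 CPM to 3622 and 3599 CPM. The medians were −0.11 in WT, −0.06 in pif4 and −0.09 in mrg1 mrg2 pif4, with 7, 16 and 11 falls. The change lay below that in WT for 11 of the 52, and 8 of the 30 genes below the mean of the other genotypes were of this family. Mean levels of PAA2 at 22 and 28 °C were 104 and 76.3 CPM in mrg1 mrg2 against 49.3 and 45.3 CPM in WT. Those of RPT1A were 228 and 149 CPM against 141 and 116 CPM, so neither gene fell below WT. Other members, such as EER5 (12.1 and 14.1 CPM against 12.4 and 14.2 CPM), stood alike in both genotypes. Chaperonin genes, which fold proteins in the cytosol and plastid, had 10 falls and 3 rises among 20, against 5 falls and 5 rises in WT, and 8 lay below WT. In pif4 and in mrg1 mrg2 pif4 there were 10 falls and 3 rises too, and 1 chaperonin gene lay below the mean of the other genotypes.

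Of 46 glutathione S-transferase genes 7 rose and 17 fell in mrg1 mrg2, while 1 rose and 22 fell in WT, and 11 lay above WT. In pif4 4 of them rose and 15 fell, and in mrg1 mrg2 pif4 4 rose and 18 fell. Of 52 genes of the peroxidase superfamily 11 rose and 10 fell, against 6 and 21 in WT, and of 42 extensin genes 4 rose and 3 fell, against 5 and 19. In pif4 11 peroxidase genes rose and 8 fell, and 8 extensin genes rose and 3 fell. In mrg1 mrg2 pif4 10 peroxidase genes rose and 9 fell, and 6 extensin genes rose and 6 fell. The extensin counts in mrg1 mrg2 lay below the shares over all genes. For both families 11 genes lay above WT and 2 below it. Many genes of both families are known from roots, and 5 of 15 root markers fell in WT while none passed in mrg1 mrg2. The part of root tissue in these differences was not tested. Of 311 ribosomal protein genes 140 fell and 10 rose in mrg1 mrg2, 132 fell in pif4, 101 in mrg1 mrg2 pif4 and 68 in WT.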
